A study of Mus musculus with 16 samples.

Results

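The comparison set cells carrying both Nfib and Mycl1 vectors against untransfected cells. The cells were 2 lines of mouse small cell lung cancer (3583T3 and 3151T4), each grown out of a dissociated tumour. The arrays were chosen by label, and 8 of the 16 arrays of the series belong to it: 4 labelled Nfib+Mycl1 and 4 control, 2 of each per line. The Nfib+Mycl1 cells had been given 1 vector with a FLAG-tagged mouse Nfib cDNA and neomycin resistance and another with Mycl1 (L-Myc, current symbol Mycl) and puromycin resistance, and were selected with G418 and puromycin. The control cells had neither vector nor selection, so the transgenes cannot be told apart from vector and drug in this design. Total RNA (100 ng per array) was amplified, biotin-labelled and hybridised to Affymetrix arrays, and values are log2 signals. The labels do not say whether arrays of a group came from separate cultures. The p-values therefore reflect no more than the scatter among these arrays, which may be technical. The other 8 arrays carry the vectors singly, 4 with Nfib and 4 with Mycl1.

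L-Myc belongs to the MYC family of transcription factors, which pair with Max, bind the E-box sequence CACGTG and are known for driving ribosome production, nucleotide synthesis and entry into S phase. Nfib is a nuclear factor I protein, a family that binds DNA as dimers and takes part in lung and brain development. Both genes are amplified in mouse and human small cell lung cancer, a tumour usually of neuroendocrine character.

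Calls were made in limma with cell line as a covariate and 1 probe set per gene, at an adjusted p (Benjamini-Hochberg) under 0.05. Of 8596 genes tested, 2885 were called (33.6%), of which 1510 were higher with Nfib+Mycl1 (17.6% of the genes tested) and 1375 lower (16%). Counts of list members given below are to be read against these shares. Lack of overlap was common too. Within both lines, the Nfib+Mycl1 arrays lay wholly above the controls for 1870 genes (21.8%) and wholly below for 1572 (18.3%). Only 627 of the calls were at least 2-fold, 232 higher and 395 lower, and the median change over all genes was 0.03 on the log2 scale. The array labelled 3583T3 Nfib+Mycl1 replicate 2 goes against its label at Mycl. Without it 3212 genes were called (37.4%), 1625 higher and 1587 lower, and 2633 of the 2885 calls were kept.

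Probe set 1422087_at of Mycl measured 11.05 and 2.67 on the 3583T3 Nfib+Mycl1 arrays and 10.34 and 9.99 on the 3151T4 Nfib+Mycl1 arrays, against 2.47, 2.36, 2.24 and 2.29 on the control arrays. Of the Nfib+Mycl1 arrays, 3 were therefore high and the library labelled 3583T3 Nfib+Mycl1 replicate 2 was at the control level, near the floor of the signal. The change was 6.17 ± 1.45 (SE, limma adjusted p = 0.0122 over 15443 probe sets), and it was 8.19 without that array, which was left out for its low value at this probe set, so that this value is a description with no test. A Nfib array of the same line, 3583T3 Nfib replicate 2, was high at this probe set, at 10.22. Across genes, the doubted array correlated most with 3583T3 Nfib replicate 1 (r = 0.9883), against 0.9802 with the other 3583T3 Nfib+Mycl1 array and 0.9585 and 0.9605 with the 3583T3 controls. In turn, 3583T3 Nfib replicate 2 correlated most with 3583T3 Nfib+Mycl1 replicate 1 (r = 0.99), against 0.9786 with the other 3583T3 Nfib array. The 3583T3 Nfib+Mycl1 pair had 494 genes at least 2-fold apart and the 3583T3 Nfib pair 535. The control pairs had 71 in 3583T3 and 43 in 3151T4. Whether the 2 arrays were exchanged was not tested. Labels were kept as given, and the main counts are also stated without the array labelled 3583T3 Nfib+Mycl1 replicate 2.

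No rise was seen at the remaining Mycl probe sets. Probe set 1434777_at was at 5.60 and 7.30 in 3583T3 and 3.79 and 3.92 in 3151T4 on the Nfib+Mycl1 arrays, against 6.81, 6.48, 6.64 and 5.93 on the controls. Its change of -1.32 ± 0.49 did not pass the test (limma adjusted p = 0.0639), and passed without the doubted array (-1.88, adjusted p = 0.0029) or without 3583T3 control replicate 2. Probe set 1422088_at stayed near the floor on all 8 arrays, between 1.88 and 2.52.

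Nfib, the other transgene, showed no rise at any of its 4 probe sets. The brightest, 1427680_a_at, read 10.12, 10.34, 10.11 and 10.12 with Nfib+Mycl1, against 10.62, 10.59, 10.48 and 10.76 in controls, and fell by 0.44 (limma adjusted p = 0.0169), a call lost without 3151T4 Nfib+Mycl1 replicate 3. The other 3 Nfib probe sets did not pass the test, at changes between -0.28 and 0.17. Whether any of them lies within the vector's cDNA was not tested.

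A probe set of Mycn, another MYC gene, stood farthest apart. Probe set 1425923_at read 13.11, 13.04, 13.26 and 13.07 with Nfib+Mycl1, against 2.03, 2.56, 2.46 and 2.48 in controls, a change of 10.73 ± 0.15 (limma adjusted p = 2.0e-10). It was at 12.19 to 13.25 on every Nfib and Mycl1 array as well, so it was high wherever a vector was present, the doubted array included. The remaining Mycn probe sets did not move with it: 1417155_at changed by -0.57 (adjusted p = 0.0984) and 1425922_a_at by 0.07 (adjusted p = 0.787). The signal of 1425923_at is therefore given for that probe set alone.

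**Figure D1:**
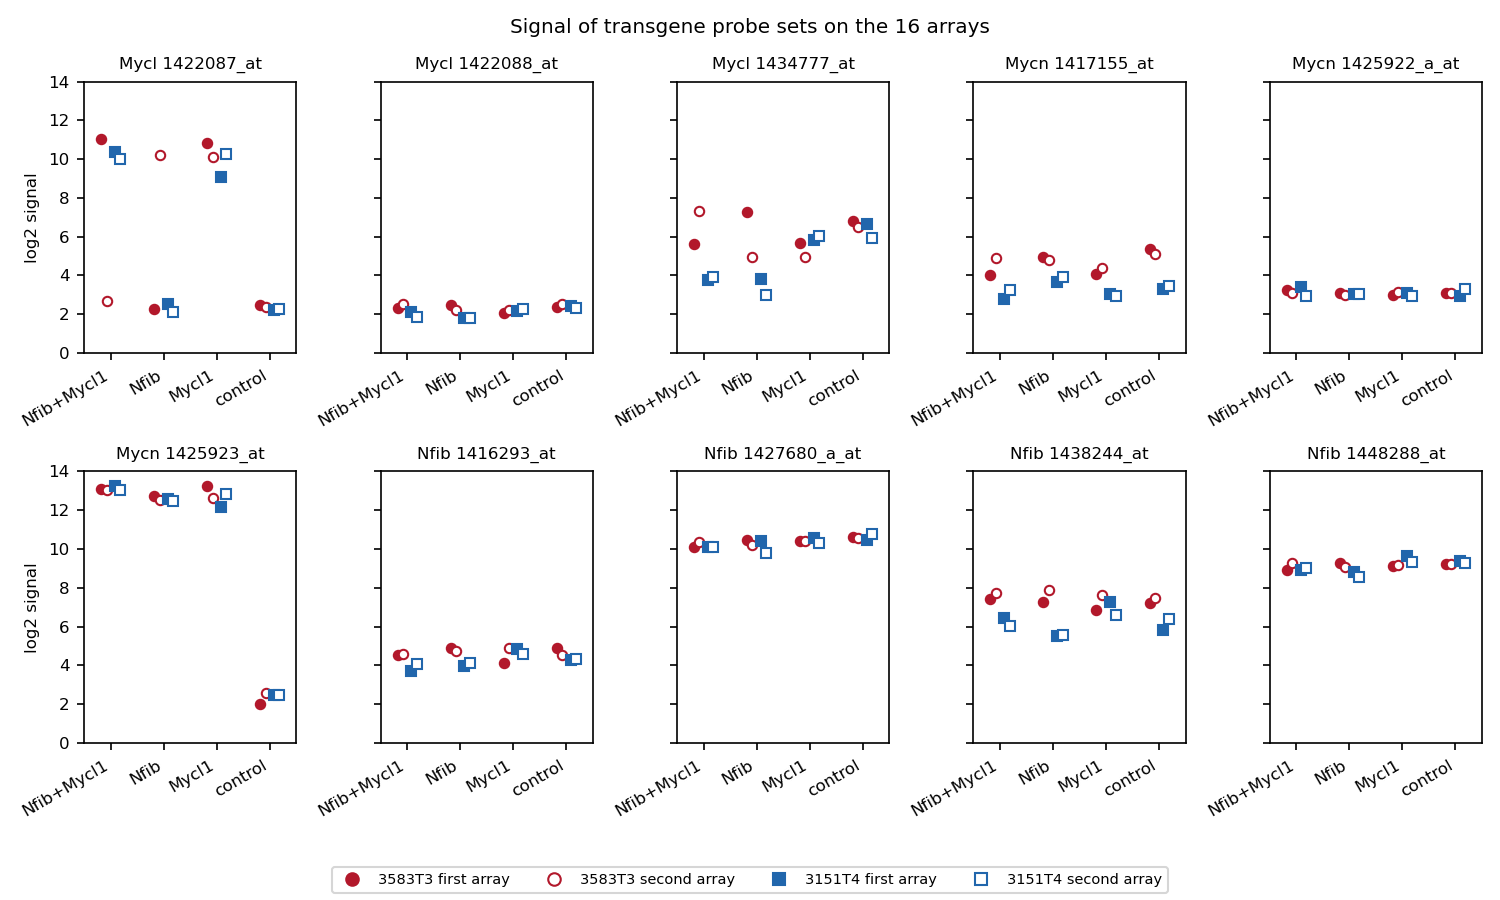
Log2 signal (vertical axis) of the 10 probe sets of Mycl, Mycn and Nfib on the 16 arrays, by vector, with 1 point per array, circles for 3583T3 and squares for 3151T4. The array labelled 3583T3 Nfib+Mycl1 replicate 2 lies at 2.67 for Mycl 1422087_at, and Mycn 1425923_at is at 12.19 or above on every array with a vector and at 2.56 or below on the control arrays.

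Most genes of ribosome production were higher with Nfib+Mycl1. Of 58 tested genes of ribosome biogenesis and the nucleolus, 43 were higher with Nfib+Mycl1 and none was lower, at a median change of 0.72 against 0.03 over all genes. Without the doubted array 47 were higher, and leaving out any single array kept the count between 36 and 47. Lyar, a nucleolar growth regulator, read 11.84 and 11.53 in 3583T3 and 11.59 and 11.59 in 3151T4 with Nfib+Mycl1, against 10.40 and 10.54, and 10.11 and 9.76, in controls. All 4 Nfib+Mycl1 arrays were above all 4 controls, and the change was 1.43 ± 0.14 (limma adjusted p = 5.0e-04). Nop14, a factor for the small ribosomal subunit, rose by 1.34, Ppan by 1.24 and Nip7, both needed for the large subunit, by 1.11. The list was compared with the single vectors too: against the Nfib arrays 36 of its genes were higher with Nfib+Mycl1 and none lower, and against the Mycl1 arrays none was called, where 17.3% and 3.84% of all genes were called in either direction. Without both arrays whose Mycl signal goes against the label they were 50 and 1. Over all genes, the comparison with Nfib called 0 without 3151T4 Nfib replicate 4 (2188 genes at an unadjusted limma p under 0.05) and 1 without 3151T4 Nfib+Mycl1 replicate 3, so the 36 rest on those arrays.

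Translation, nucleotide synthesis, protein folding and nuclear pore genes followed. Of 28 genes of translation factors and tRNA charging, 17 were higher and none lower (median 0.48). Qtrt1, which makes the queuosine base of tRNA, read 9.29, 8.33, 8.98 and 9.25 with Nfib+Mycl1, against 7.39, 7.64, 6.93 and 6.78 in controls, with no overlap and a change of 1.77 ± 0.26 (limma adjusted p = 0.0023). Pus1, a pseudouridine synthase of tRNA, rose by 1.38, the phenylalanine tRNA synthetase subunit Farsa by 0.78 and the threonine enzyme Tars by 0.71. Of 21 genes of nucleotide and polyamine synthesis, 11 were higher and 1 lower (median 0.52), among them Umps (1.18) and Dhodh (0.90), which build pyrimidines, Mthfd1 (0.83), which feeds folate units to purines, and Srm (0.79), the spermidine synthase. Of 24 genes of protein folding and mitochondrial import, 14 were higher and 1 lower, with Trap1 (0.99), a mitochondrial chaperone, Cct7 (0.88), a chaperonin subunit, Timm23 (0.64), an inner membrane translocase, and Phb2 (0.63), a prohibitin. That count was 8 without 3151T4 Nfib+Mycl1 replicate 3, and 9 without 3583T3 control replicate 1, 3151T4 control replicate 4 or 3151T4 Nfib+Mycl1 replicate 4. Of 28 genes of the nuclear pore, 14 were higher and none lower. Nup210, a membrane protein of the pore, led them at 10.73, 9.24, 9.44 and 9.68 with Nfib+Mycl1, against 7.54, 8.15, 6.20 and 6.48 in controls (2.68 ± 0.34, limma adjusted p = 0.0015). Nup107 (0.85), Nup133 (0.73) and Nup93 (0.57), scaffold proteins of the pore, also rose.

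Cell cycle genes rose less evenly. Of 40 genes of DNA replication and S phase, 20 were higher and 1 lower (median 0.40). Of 39 genes of G2/M and mitosis 11 were higher and none lower (median 0.16, 7 higher without 3151T4 Nfib+Mycl1 replicate 4). In 3583T3 the G2/M list had 1 higher and 1 lower (median 0.04). In 3151T4 it had 12 higher and none lower (median 0.36). The helicase subunit Mcm5 read 10.22, 10.00, 10.14 and 10.01 with Nfib+Mycl1, against 8.97, 9.21, 8.70 and 8.48 in controls, a change of 1.25 ± 0.14 (limma adjusted p = 0.0012). The polymerase alpha subunit Pola2 rose by 1.14, the clamp loader subunit Rfc2 by 1.00 and the dUTPase Dut by 0.71. In mitosis, the condensin subunits Ncapd2 (0.81) and Ncaph (0.68), the kinesin Kif20a (0.74) and the checkpoint kinase Bub1b (0.74) rose. Of 21 inhibitors of the cycle and D-type cyclins none was higher and 7 were lower, or 4 without 3583T3 control replicate 1, 3151T4 Nfib+Mycl1 replicate 3 or 3151T4 Nfib+Mycl1 replicate 4, while 1 was higher without the doubted array. Cdkn2b, an inhibitor of the cyclin D kinases, read 10.23, 10.72, 8.08 and 8.01 with Nfib+Mycl1, against 11.16, 11.15, 10.28 and 9.96 in controls, and fell by 1.38 (limma adjusted p = 0.0052). Its relative Cdkn2d fell by 0.90, Rb1, the retinoblastoma protein that restrains S phase, by 0.76, and cyclin Ccnd3 by 0.59.

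In the list of the MYC family and its partners, 4 of 11 tested were called higher and none lower, Mycn by its 1 probe set among them. Max, the common partner, changed by 0.45 (limma adjusted p = 0.0182), Mga by 0.68 and Mnt by 0.64, both Max-binding repressors. These were the weaker calls: Max was lost without 3583T3 control replicate 2 (and without 3151T4 Nfib+Mycl1 replicate 4), and the count was 2 or 1 without any array other than 3583T3 control replicate 1 and 3583T3 Nfib+Mycl1 replicate 2. Without the doubted array 5 were higher and 1 lower. A lower member appeared only in the settings that also called Mycl probe set 1434777_at lower, so it is not read as a fall of a partner. In glycolysis and the response to hypoxia, 8 of 28 were higher and 3 lower, with Ldha, lactate dehydrogenase, at 13.53, 13.53, 13.59 and 13.16 with Nfib+Mycl1, against 12.96, 13.08, 12.76 and 12.20 in controls (0.70 ± 0.14, limma adjusted p = 0.0072). Egln3 (1.41), an oxygen-sensing hydroxylase, Ndrg1 (0.57) and the phosphofructokinase Pfkl (0.52) rose too. The number higher was 4 without 3151T4 Nfib+Mycl1 replicate 3 and 5 without 3583T3 control replicate 1 or 3151T4 Nfib+Mycl1 replicate 4, and the 3 lower were 1 or 0 without 3583T3 control replicate 1 or any of the 3151T4 arrays.

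The promoters of 3 of these rising growth genes are shown as examples that hold the MYC E-box. They were picked among the growth genes and not by size of change. Each is the 250 bases before the gene's start from RefSeq (GRCm38.p6), 5′ to 3′ on the gene's strand, with CACGTG in capitals: Qtrt1 at chr9:21411587-21411836 (strand +), Pola2 at chr19:5964207-5964456 (strand -) and Ldha at chr7:46845554-46845803 (strand +).
Qtrt1: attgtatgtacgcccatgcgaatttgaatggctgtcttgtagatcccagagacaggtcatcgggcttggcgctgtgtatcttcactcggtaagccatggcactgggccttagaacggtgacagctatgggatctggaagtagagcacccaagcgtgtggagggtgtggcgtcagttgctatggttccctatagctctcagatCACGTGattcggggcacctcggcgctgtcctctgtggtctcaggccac
Pola2: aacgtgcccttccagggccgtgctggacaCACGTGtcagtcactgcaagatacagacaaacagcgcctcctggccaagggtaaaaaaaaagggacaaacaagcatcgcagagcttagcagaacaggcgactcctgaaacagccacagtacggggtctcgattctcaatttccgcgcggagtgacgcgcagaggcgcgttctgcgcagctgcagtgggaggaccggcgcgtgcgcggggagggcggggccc
Ldha: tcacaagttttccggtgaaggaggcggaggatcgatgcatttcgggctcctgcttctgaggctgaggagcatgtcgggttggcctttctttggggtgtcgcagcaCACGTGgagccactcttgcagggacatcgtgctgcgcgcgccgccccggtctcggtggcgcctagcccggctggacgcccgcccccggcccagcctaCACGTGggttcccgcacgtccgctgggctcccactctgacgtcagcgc
In Qtrt1 the E-box begins 48 bases before the start, in Pola2 221, and Ldha holds 2 of them, 145 and 48 bases before it. The E-box reads the same on both strands. It was in 6.86% of the 27025 genes with a promoter in the table, 10.0% of the 7001 tested genes with one, 12% of those called higher, 13.8% of those higher at least 2-fold, 9.13% of those called lower and 4.93% of those lower at least 2-fold. Of the 51 ribosome biogenesis genes with a promoter, 3 held it (5.88%), and of the 20 translation and tRNA charging genes with one, 7 did (35%), or 2 of the 12 called higher (16.7%). Of 76 genes named for a rise, 66 had a promoter and 10 held the E-box. Slpi, Hopx, Fbln1, Trim25 and Psmb10, which are not among the growth genes above, also held it. Slpi and Hopx rose more than the 3 genes shown. The full nuclear factor I site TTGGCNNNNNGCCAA, searched on both strands, was in 2 of the 7001 tested genes and in 0 of the called ones, which allows no comparison. The single arm TTGGCA, also searched on both strands, was in 11.6% of the tested genes, 11% of those called higher and 13% of those called lower. A match describes these letters in this window and is not a site that was shown to be bound.

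Beyond growth genes, a set of genes rose in both lines. Prrx1, a homeobox factor of mesenchyme, read 11.13, 10.62, 11.07 and 11.09 with Nfib+Mycl1, against 7.64, 8.18, 8.04 and 7.65 in controls. Both lines rose by about the same amount (2.96 in 3583T3 and 3.24 in 3151T4), and the change was 3.10 ± 0.18 (limma adjusted p = 1.5e-05). Flt1, a receptor for vascular endothelial growth factor, read 8.74, 8.76, 10.02 and 10.08 with Nfib+Mycl1, against 6.03, 5.49, 7.43 and 7.21 in controls (2.86 ± 0.16, adjusted p = 1.5e-05). Acan, the cartilage proteoglycan aggrecan, rose by 2.81, Eln, elastin, by 3.03, Svep1, a large matrix protein, by 2.99, and Smoc1, a calcium-binding matrix protein, by 2.10. Hopx, a homeodomain cofactor of lung and heart, rose by 2.53, Myb, a proto-oncogene factor, by 2.23, Ces2g, a carboxylesterase, by 2.60, and Avpr1a, a vasopressin receptor, by 2.06.

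**Figure D2:**
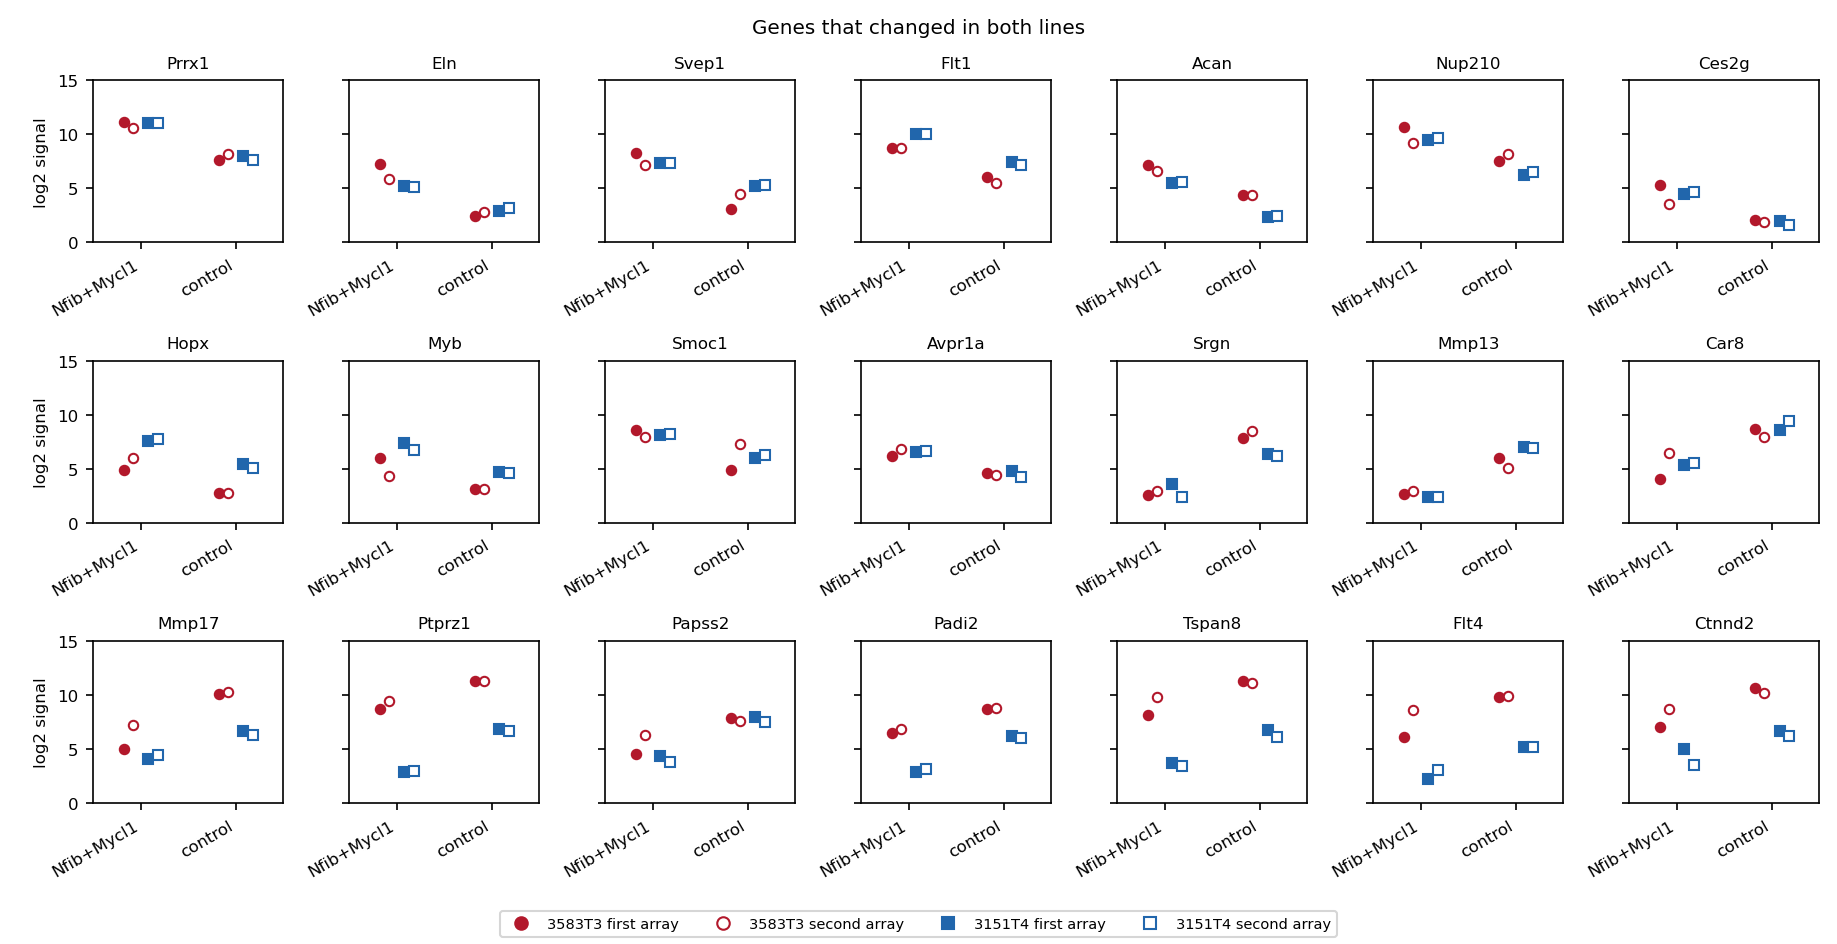
Log2 signal (vertical axis) of genes that changed in both lines, Nfib+Mycl1 arrays left and control arrays right in each panel, with 1 point per array. Prrx1 is at 10.62 to 11.13 with Nfib+Mycl1 and at 7.64 to 8.18 in controls, and Srgn is at 2.41 to 3.57 with Nfib+Mycl1 and at 6.20 to 8.45 in controls.

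The largest falls were of macrophage genes. Of 67 tested genes of the macrophage and myeloid list, 52 were lower with Nfib+Mycl1 and 2 higher (median change -2.26), and all 5 class II antigen presentation genes tested were lower (median -3.53). Another 47 macrophage genes and 3 class II genes on the array did not pass the filter for signal. Genes of both lists could pass it through the control arrays alone, which favours falls. These 2 counts are therefore a description and not a test of a fall. Lyz1, a lysozyme, read 3.17 and 3.74 in 3583T3 and 2.24 and 2.22 in 3151T4 with Nfib+Mycl1. The controls read 12.27 and 12.62 in 3583T3 and 11.65 and 11.80 in 3151T4. The change was -9.24 ± 0.19 (limma adjusted p = 2.3e-09) and is limited by the floor of the signal. Whether the Lyz1 probe set also detects the Lyz2 transcript was not tested. C1qb, a complement protein of macrophages, was at 2.48, 2.15, 2.47 and 2.26 with Nfib+Mycl1, against 11.08, 11.35, 9.35 and 9.35 in controls, and fell by 7.94. Lyz2 fell by 8.27, Laptm5, a lysosomal protein of leukocytes, by 6.20, Ctss, a protease of antigen-presenting cells, by 5.93, and Cd74, the class II invariant chain, by 5.29. On the Nfib and Mycl1 arrays Lyz1 ranged from 2.52 to 7.62, and C1qb from 2.09 to 3.42, below every control.

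These genes mark a cell type. Of 13 defining macrophage markers, 10 exceeded log2 4 on at least 1 control array, and 2 on at least 1 Nfib+Mycl1 array (Cd68 and Cd14). Their mean level was 2.72 to 2.87 on the Nfib+Mycl1 arrays, against 5.45 to 7.22 on the control arrays, with Adgre1, Itgam and Aif1 below log2 4 on all 8. In bulk samples, fewer cells of a type and less RNA per cell cannot be told apart, and the part of macrophage RNA in the other falls was not tested. All 8 lymphocyte markers were below log2 4 on all 8 arrays. Of the 7 endothelial markers 5 were below it on all 8 arrays, while Emcn reached 8.47 on 1 control array only.

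Falls outside the leukocyte lists were of other roles. Srgn, serglycin, a proteoglycan of granules, read 2.57, 2.96, 3.57 and 2.41 with Nfib+Mycl1, against 7.84, 8.45, 6.37 and 6.20 in controls, and fell by 4.34 (limma adjusted p = 5.9e-04). It is also abundant in leukocytes. Mmp13, a collagenase, read 2.68, 2.95, 2.35 and 2.38 with Nfib+Mycl1, against 6.03, 5.07, 7.02 and 6.91 in controls, and fell by 3.67. Mmp17, another matrix protease, fell by 3.17, and Tll1, a protease that processes procollagen, by 2.17. Car8, a carbonic anhydrase relative without enzyme activity, fell by 3.31, the receptor phosphatase Ptprz1 by 3.04, the sulphate donor enzyme Papss2 by 2.98 and Padi2, which makes citrulline in proteins, by 2.60. The tetraspanin Tspan8 (-2.54), the lymphatic growth factor receptor Flt4 (-2.51), the delta-catenin Ctnnd2 (-2.35) and the serpin Serpinb9b (-2.27) were lower as well. In apoptosis 4 of 33 were higher and 8 lower. Pmaip1, the Noxa protein that triggers mitochondrial death, read 10.52, 10.43, 7.72 and 7.89 with Nfib+Mycl1, against 12.54, 12.29, 10.15 and 10.03 in controls, with no overlap within either line (limma adjusted p = 1.7e-05). It fell by 1.94 in 3583T3 and fell by 2.29 in 3151T4. Bik, a protein of the same kind, fell by 2.06, the caspase inhibitor Xiap by 0.58, and Aifm1 rose by 0.70. The 8 lower members were 4 without 3583T3 control replicate 1, 3151T4 Nfib+Mycl1 replicate 3 or 3151T4 Nfib+Mycl1 replicate 4, and 5 without 3151T4 control replicate 3 or 3151T4 control replicate 4. The 4 higher were 2 without 3583T3 control replicate 1, 3583T3 control replicate 2 or 3151T4 control replicate 4.

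Markers of the labelled tumour type were largely absent. Of the 13 neuroendocrine markers, 8 were above log2 4 on none of the 8 arrays, among them Chga, Chgb, Syp, Insm1 and Syt1, while Uchl1 and Ncam1 were bright on all 8. Ddc was at 8.92 and 9.27 with Nfib+Mycl1 in 3151T4, against 10.55 and 10.52 in its controls, and at 1.42 to 1.77 in 3583T3. Scg2 exceeded log2 4 on the 3151T4 controls only (4.99 and 4.87), and Snap25 on 3151T4 Nfib+Mycl1 replicate 3 only (4.58). Of the 40 neuroendocrine genes on the array, 14 were tested, 6 were lower with Nfib+Mycl1 and none higher (median -0.41). Uchl1, a ubiquitin hydrolase of neurons, read 8.31, 9.95, 10.21 and 10.19 with Nfib+Mycl1, against 10.31, 10.94, 11.34 and 10.74 in controls, and fell by 1.17 (limma adjusted p = 0.0233). The call was lost without 3583T3 control replicate 2, 3151T4 control replicate 3, 3151T4 Nfib+Mycl1 replicate 3 or 3151T4 Nfib+Mycl1 replicate 4. Rab3a, a vesicle GTPase, fell by 0.60 and Cpe, a prohormone carboxypeptidase, fell by 0.48. The Cpe call was lost without 3151T4 Nfib+Mycl1 replicate 3. The 6 lower were 3 without 3583T3 control replicate 1 or 3151T4 control replicate 4, 2 without 3151T4 control replicate 3 or 3151T4 Nfib+Mycl1 replicate 4, and 1 without 3151T4 Nfib+Mycl1 replicate 3.

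Adhesion genes were more often lower than higher. Of 25 tested genes of epithelial junctions and keratins, 10 were lower and 2 higher (median -0.48). Dsp, desmoplakin of desmosomes, read 9.14, 9.44, 6.25 and 6.24 with Nfib+Mycl1, against 10.54, 10.17, 9.49 and 9.63 in controls, a fall of 2.19 (limma adjusted p = 0.0040). Cdh1, E-cadherin, fell by 1.00 and Spint2, a protease inhibitor of epithelia, by 1.47, while the epithelial factor Grhl1 rose by 1.17. The 2 higher were 1 without any control array or either 3151T4 Nfib+Mycl1 array. Of 28 genes of neuronal adhesion and axon guidance, 8 were lower and 1 higher, with Robo1 (-1.06), Unc5b (-0.99), Efnb1 (-1.06) and Cdh2, N-cadherin (-0.74), among the lower. Of 39 genes of mesenchymal transition, 11 were lower and 5 higher, Twist1 rising by 0.64 and Tgfbr1 falling by 0.75. The 11 were 7 without 3151T4 control replicate 3 or 3151T4 Nfib+Mycl1 replicate 3, and the 5 were 2 or 3 without 3583T3 control replicate 1, 3583T3 Nfib+Mycl1 replicate 1, 3583T3 control replicate 2, 3583T3 Nfib+Mycl1 replicate 2 or 3151T4 control replicate 4. Of 9 integrins 4 were lower and none higher, with changes of -0.97 for Itga9 and -0.59 for Itgb1, and the count was 2 without 3151T4 control replicate 3 or 3151T4 Nfib+Mycl1 replicate 3.

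**Figure D3:**
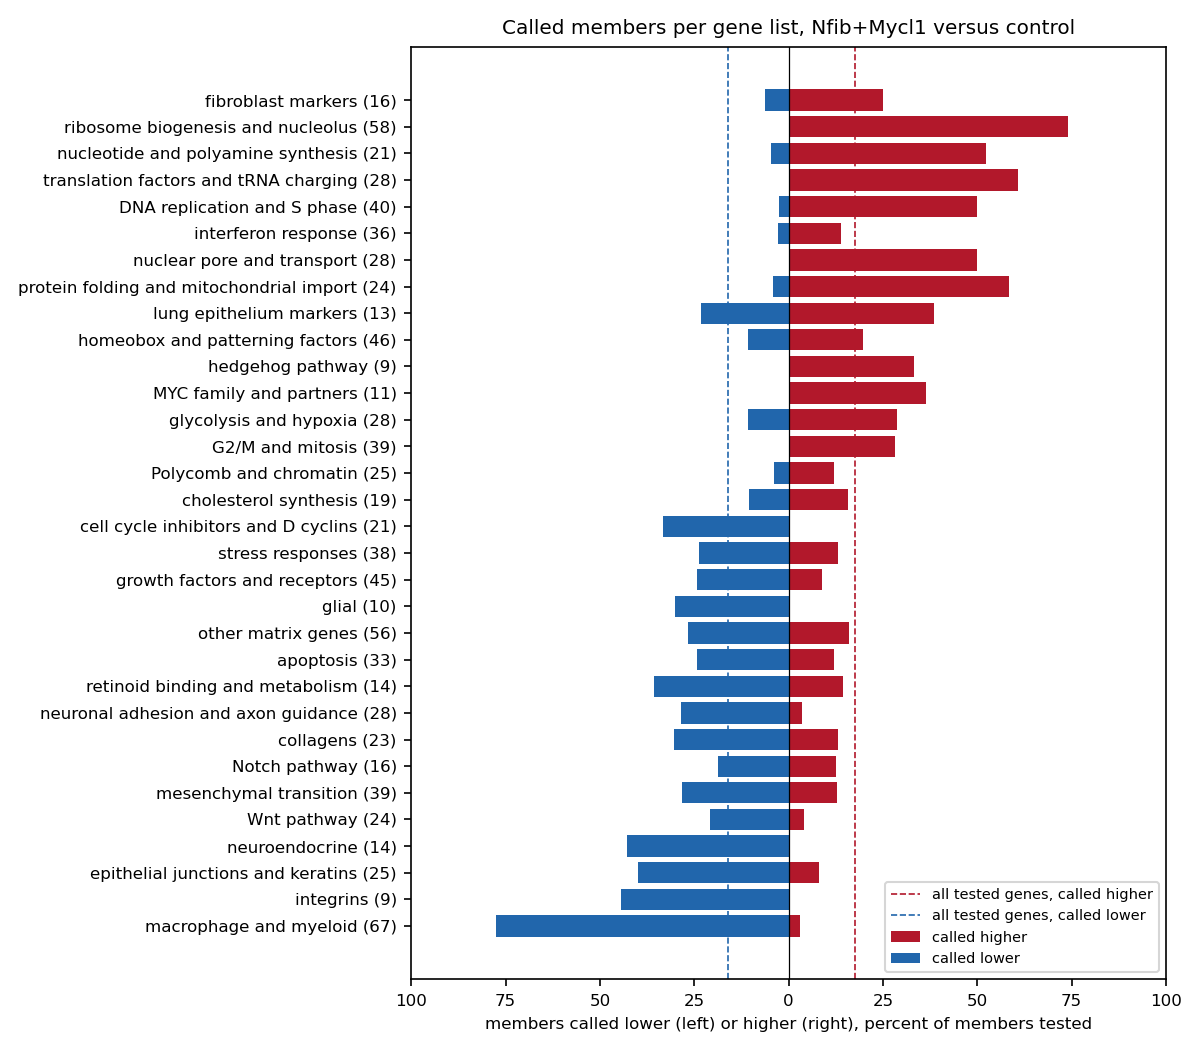
Members of each gene list with at least 9 tested members that were called lower (blue, left) or higher (red, right) with Nfib+Mycl1 against control, as a percent of the members tested, given in brackets. Dashed lines mark all tested genes, 17.6% higher and 16% lower, and among the lists drawn ribosome biogenesis (43 of 58) lies farthest beyond the line for higher and the macrophage list (52 of 67) farthest beyond the line for lower. Class II antigen presentation (5 of 5 lower) has too few members to be drawn. Genes of the macrophage and class II lists could pass the filter for signal through the control arrays alone.

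Signalling genes moved one by one. Over all tested genes 17.6% were called higher and 16% lower. The shares higher and lower were 4.17% and 20.8% for Wnt, 12.5% and 18.8% for Notch, and 14.3% and 35.7% for retinoid genes. For growth factors and receptors they were 8.89% and 24.4%. Homeobox and patterning factors had 19.6% and 10.9%, and the stress response 13.2% and 23.7%. Of 24 Wnt genes 5 were lower and 1 higher, the 1 being Sfrp2, a secreted Wnt modulator, at 11.92, 12.11, 12.27 and 12.11 with Nfib+Mycl1, against 10.27, 10.69, 10.77 and 10.88 in controls (1.45 ± 0.12, limma adjusted p = 1.8e-04). The receptors Fzd7 (-0.73) and Fzd2 (-0.71) fell. The 5 were 2 without 3151T4 Nfib+Mycl1 replicate 3 or 3151T4 control replicate 4, and 3 without 3583T3 Nfib+Mycl1 replicate 1 or 3151T4 Nfib+Mycl1 replicate 4. Of 16 Notch genes 2 were higher and 3 lower, with Hes6, an inhibitor of Hes1, falling by 1.30 and Nrarp by 1.14. The 2 higher were 1 without any of the 3583T3 arrays, 3151T4 control replicate 4 or 3151T4 Nfib+Mycl1 replicate 4. Of 14 retinoid genes 5 were lower and 2 higher, or 1 higher without 3583T3 control replicate 1 or 3151T4 control replicate 4. Rdh10, which makes retinal, read 10.90, 10.73, 9.25 and 9.34 with Nfib+Mycl1, against 11.95, 11.92, 10.59 and 10.72 in controls, and fell by 1.24 (limma adjusted p = 2.0e-04). Aldh1a1, which makes retinoic acid, fell by 1.85, Dhrs3 by 1.31 and the receptor Rarg by 0.78. Of 45 growth factors and receptors 4 were higher and 11 lower, with Igfbp4 (-1.84) and Igfbp7 (-0.97), which bind insulin-like growth factors, and Inhbb (-2.07), an activin subunit, among the lower. Of 46 homeobox and patterning factors 9 were higher and 5 lower. Hoxa5 rose by 1.23, and Sox11, a factor of neural progenitors, fell by 1.86 and Foxa1, of lung endoderm, by 0.68. The 9 higher were 4 or 5 without any control array or either 3151T4 Nfib+Mycl1 array, and 19 with a mean of its own for each line and vector. In the stress response 5 of 38 were higher and 9 lower, with Xbp1 (-0.94) and Edem1 (-0.90), of the unfolded protein response, lower, and Phgdh (0.70), of serine synthesis, higher. The 5 higher were 2 without 3583T3 control replicate 1, 3583T3 Nfib+Mycl1 replicate 1 or 3151T4 Nfib+Mycl1 replicate 3 and 1 without 3583T3 control replicate 2 or 3151T4 control replicate 4, and the 9 lower were 5 without 3151T4 control replicate 4. Cholesterol synthesis (3 higher and 2 lower of 19, the 2 becoming 1 or 0 without any array other than 3583T3 control replicate 2) and the Polycomb and chromatin list (3 higher and 1 lower of 25, Dnmt1 up by 0.65, Dnmt3b up by 1.28 and Dnmt3a down by 0.44) were near or below the share called among all genes.

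Of 13 tested lung epithelium genes 5 were higher and 3 lower, with Cxcl15 (1.71), a lung chemokine, among the higher and Abca3 (-0.83), a surfactant lipid transporter, Cbr2 (-1.38) and Aldh3a1 (-1.49) the lower. Cxcl15, Abca3 and Aldh3a1 were named outside the rule for naming genes, and their calls were not followed with single arrays left out. Of 9 hedgehog genes 3 were higher and none lower: Gas1, the transcription factor Gli2 (1.25) and the co-receptor Boc (0.79), with 1 left without 3151T4 Nfib+Mycl1 replicate 3. The Boc call was lost without any array other than 3151T4 control replicate 3 and 3151T4 Nfib+Mycl1 replicate 4, and without the doubted array its change was 0.74 (limma adjusted p = 0.076). Of 10 glial genes none was higher and 3 were lower, and of 4 endothelial genes none was called. Of the 4 nuclear factor I genes Nfix (0.58) was higher and Nfib lower, and the Nfix call was lost without 3583T3 control replicate 1 or 3151T4 Nfib+Mycl1 replicate 3. Of 3 lymphocyte genes past the filter Thy1 (0.69), also made by fibroblasts, was higher, and Cd2 (-1.34) and Cd28 (-1.05) were lower, none of the control arrays exceeding 5.46 at either. The Cd28 call was lost without any array other than 3151T4 Nfib+Mycl1 replicate 3. The Thy1 call was lost without 3583T3 control replicate 1, either 3583T3 Nfib+Mycl1 array, 3151T4 control replicate 4 or 3151T4 Nfib+Mycl1 replicate 4. Members that ran against their list, named after their values were seen, were Mcm4 (-0.54) in S phase, Paics (-0.45) in nucleotide synthesis, Cct4 (-0.27) in folding, Slit2 (0.70) in axon guidance (where 3 were higher without 3151T4 control replicate 3 and 5 without 3151T4 Nfib+Mycl1 replicate 3), Pkp1 (0.61) among epithelial genes, and Saa3 (1.07) and Tlr2 (0.87) among macrophage genes. The calls of Mcm4, Paics and Cct4 came and went with single arrays left out: the S phase, nucleotide and folding lists held none lower without 3583T3 control replicate 1, 3151T4 Nfib+Mycl1 replicate 3, 3151T4 Nfib+Mycl1 replicate 4, 3151T4 control replicate 4 or 3583T3 Nfib+Mycl1 replicate 2.

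The lines were then taken apart. In 3583T3 1319 genes were called (15.3%), 708 higher and 611 lower with Nfib+Mycl1, and in 3151T4 2750 (32%), 1355 higher and 1395 lower. Without the doubted array the 3583T3 count was 2112. Both lines called 776 genes, 362 higher in both, 356 lower in both and 58 in opposite directions. The growth lists had fewer members called higher in 3583T3 than in 3151T4. Ribosome biogenesis had 19 and 47 (medians 0.48 and 0.92), translation 8 and 16, and nucleotide synthesis 7 and 12. Protein folding had 1 and 13, the nuclear pore 6 and 12, and S phase 8 and 23 (medians 0.155 and 0.565). The test of the difference between lines called 2 ribosome biogenesis genes and none in the other growth lists. The difference between the 2 changes was itself tested and was called for 494 genes (5.75%), of which 369 changed more positively in 3583T3 and 125 in 3151T4. Without the doubted array it was 803, and it was 230 to 996 over all single arrays left out.

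Many matrix genes were among them. Of 23 collagens, 3 were higher and 7 lower in the pooled test (4 lower without 3151T4 control replicate 4), and the median change was 0.57 in 3583T3 and -1.11 in 3151T4. The change differed between the lines for 11 of them, 10 more positive in 3583T3. Col6a2, of the beaded collagen VI, read 9.46 and 9.55 in 3583T3 and 11.18 and 11.05 in 3151T4 with Nfib+Mycl1, against 6.42 and 6.69, and 9.72 and 10.23, in controls. It rose in both lines, by 2.95 and 1.14, and the changes differed by 1.81 (limma adjusted p = 0.0039). Col6a1 rose by 1.02 in the pooled test, and Col11a1 and Col4a5 fell by 1.91 and 1.00. Of 56 other matrix genes, 9 were higher and 15 lower, and 24 differed between the lines, all 24 more positive in 3583T3. The 9 were 2 without 3583T3 control replicate 1 and 5 without 3583T3 control replicate 2, and the 15 were 8 without 3151T4 Nfib+Mycl1 replicate 3 or 3151T4 Nfib+Mycl1 replicate 4. Postn, periostin, read 11.61 and 11.02 in 3583T3 and 11.81 and 11.70 in 3151T4 with Nfib+Mycl1, against 5.14 and 4.84, and 12.33 and 12.50, in controls. It went up by 6.33 in 3583T3 and changed by -0.67 in 3151T4, a difference of 7.0 (limma adjusted p = 7.2e-07).

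The 10 fibroblast markers had a mean level of 8.81 to 9.30 on the Nfib+Mycl1 arrays, against 7.22 to 8.88 on the control arrays, and all 10 exceeded log2 4 on at least 1 Nfib+Mycl1 array. Col1a1 was between 11.90 and 12.73 on all 8 arrays. Their part in the matrix changes was not tested. Of the 16 genes of the fibroblast list, the median change was 1.34 in 3583T3 and -0.05 in 3151T4, and 6 differed between the lines, all more positive in 3583T3. In the pooled test 4 were higher and 1 lower, and the 4 were 1 or 2 without 3583T3 control replicate 1, 3583T3 Nfib+Mycl1 replicate 2 or 3151T4 Nfib+Mycl1 replicate 4, and 8 with a mean of its own for each line and vector.

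Interferon genes were higher mainly in 3583T3. Of 36 tested, 21 were higher in 3583T3 and none lower, while in 3151T4 2 were higher and 8 lower. The median change was 1.20 in 3583T3 and -0.24 in 3151T4, and the difference was called for 17, all 17 more positive in 3583T3. Trim30a, an interferon-induced TRIM protein, read 9.95 and 8.74 in 3583T3 and 5.66 and 5.50 in 3151T4 with Nfib+Mycl1, against 4.62 and 5.52, and 5.16 and 5.22, in controls. Its changes of 4.28 and 0.39 differed by 3.89 (limma adjusted p = 0.0015). Trim25 (1.16) and Psmb10 (0.90), an immunoproteasome subunit, were higher in the pooled test, and Irgm1 was lower (-1.14). The pooled test called 5 higher, 2 or 3 without any of the 3583T3 arrays, and 16 where each line and vector had its own mean and the lines were averaged. Against the Nfib arrays, 11 of the 36 were lower with Nfib+Mycl1 and none higher, and against the Mycl1 arrays 6 were higher and none lower. Among all 8596 genes, 695 were lower than on the Nfib arrays and 158 higher than on the Mycl1 arrays. Leaving out both arrays whose Mycl signal goes against the label gave 12 lower and 1 higher against Nfib. Against Mycl1 it gave 3 higher and none lower. The 11 also rest on the arrays named beside ribosome biogenesis, since dropping either left the Nfib comparison with 0 or 1 genes. The comparisons with Nfib and with Mycl1 share the Nfib+Mycl1 arrays.

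**Figure D4:**
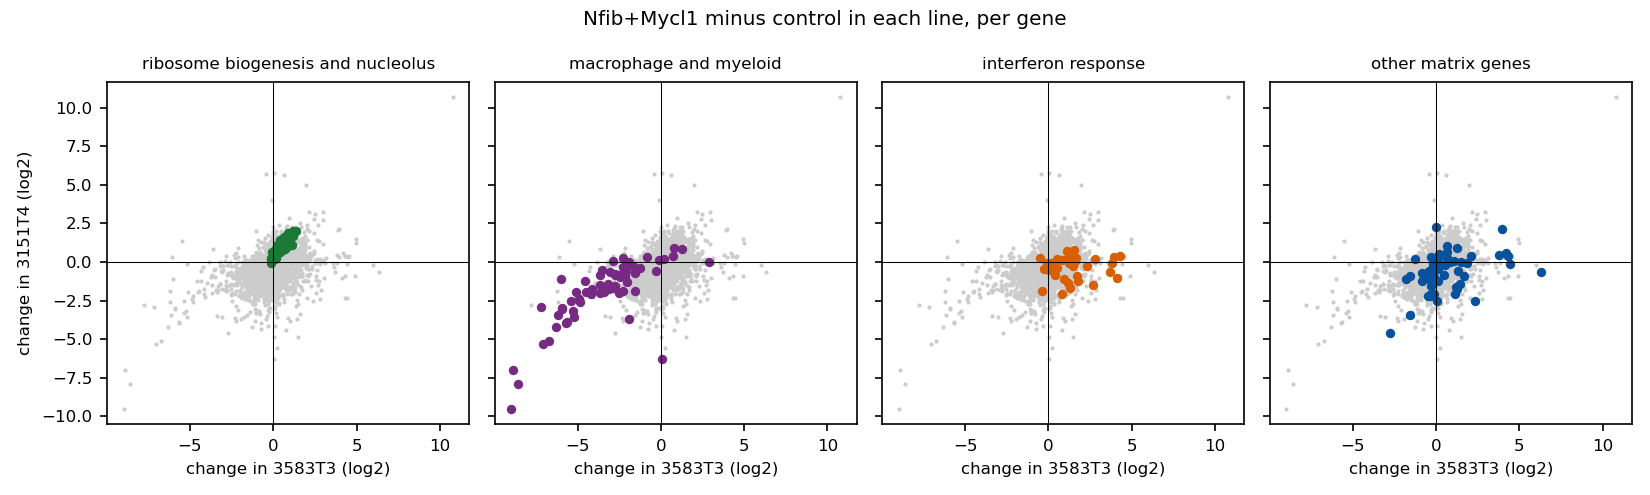
Change with Nfib+Mycl1 against control per gene (log2), 3583T3 on the horizontal axis and 3151T4 on the vertical axis, with all tested genes in grey and 1 list coloured in each panel. Ribosome biogenesis genes lie to the upper right and macrophage genes to the lower left, while interferon and matrix genes spread to the right with medians of 1.20 and 0.11 in 3583T3 and -0.24 and -0.47 in 3151T4.

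Single genes that differed most ran both ways. Cd34, a surface sialomucin, Sfrp1, a Wnt inhibitor, and Dkk2, another Wnt modulator, rose in 3583T3 (by 4.45, 4.33 and 1.49) and changed by -2.32, -2.35 and -4.84 in 3151T4, each passing the test. F13a1, a coagulation factor subunit also made by macrophages, was near the floor in 3583T3 (2.77 and 2.00 with Nfib+Mycl1, against 2.33 and 2.33 in controls) and at 5.04 and 4.67 with Nfib+Mycl1 in 3151T4, against 10.86 and 11.37 in controls. Its fall of 6.26 was in 3151T4 only, with a difference of 6.31 (limma adjusted p = 1.1e-05). In the other direction, Car9, a hypoxia-induced carbonic anhydrase, read 2.81 and 3.26 in 3583T3 and 8.37 and 8.45 in 3151T4 with Nfib+Mycl1, against 3.31 and 3.61, and 2.70 and 2.72, in controls. It went up by 5.69 in 3151T4. Tnnc2, a muscle troponin, rose by 5.76 and Lhx8, a LIM homeobox factor, by 5.66 in 3151T4, with changes of 0.06 and 0.63 in 3583T3 that did not pass the test. Ugt2b34, a glucuronosyltransferase, Myh11, smooth muscle myosin, and Bex4 were lower in 3583T3 (-6.10, -5.20 and -5.50), and in 3151T4, where they were low in controls, changed by 0.30, -0.11 and 1.34 without passing it. Gas1, a hedgehog co-receptor, rose by 4.98 in 3583T3 and 1.21 in 3151T4, and Crabp1, which binds retinoic acid, by 4.95 and 1.46. Slpi, a protease inhibitor of mucosa, went up by 1.97 in 3583T3 and 4.98 in 3151T4.

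**Figure D5:**
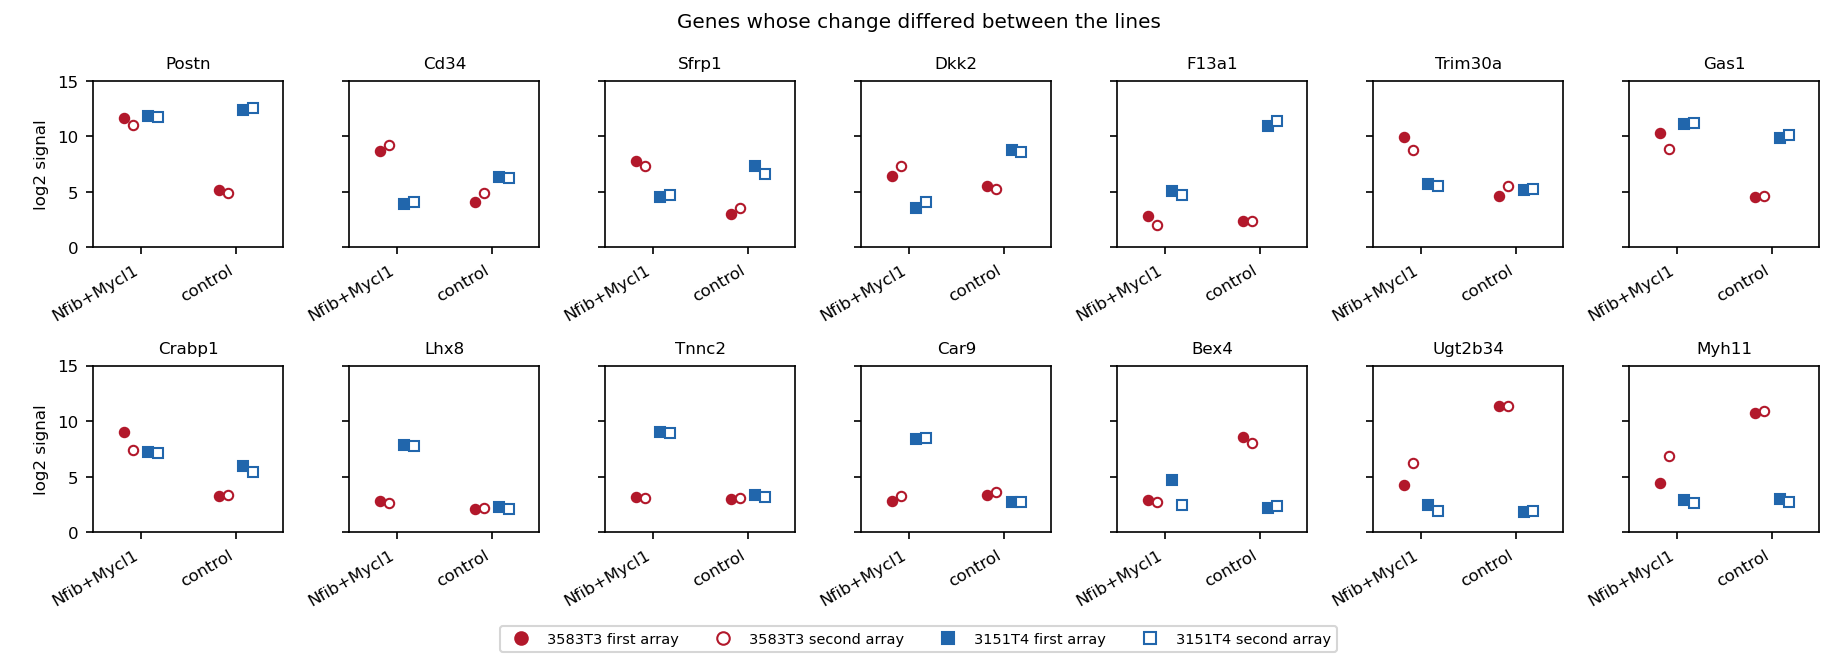
Log2 signal (vertical axis) of genes whose change differed between the lines, Nfib+Mycl1 arrays left and control arrays right in each panel, with 1 point per array, circles for 3583T3 and squares for 3151T4. Postn is at 11.02 to 11.61 with Nfib+Mycl1 and at 4.84 to 5.14 in controls in 3583T3, while in 3151T4 all 4 arrays are at 11.70 or above.

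Set against a single vector, the cells with both differed from the Nfib arrays in 1489 genes, 794 higher and 695 lower, and from the Mycl1 arrays in 330, 158 higher and 172 lower. Without both arrays whose Mycl signal goes against the label, the counts were 2385 and 283. The Nfib comparison, which called 0 and 1 genes without the arrays named beside ribosome biogenesis, called 714 without 3151T4 Nfib replicate 3, 741 without 3151T4 Nfib+Mycl1 replicate 4 and 991 without 3583T3 Nfib+Mycl1 replicate 1. Against Mycl1, it ranged from 97 without 3583T3 Nfib+Mycl1 replicate 1 to 542 without 3583T3 Mycl1 replicate 1. Flt1 was 3.27 higher than on the Mycl1 arrays (limma adjusted p = 1.4e-05), Col6a2 3.90 higher (adjusted p = 1.4e-05) and Prrx1 2.95 higher (adjusted p = 0.0082), while against the Nfib arrays Flt1 differed by -0.59 and Prrx1 by -0.18, without passing the test. Without both arrays whose Mycl signal goes against the label, Flt1 was lower than on the Nfib arrays (-0.89, limma adjusted p = 0.0352). Lyar and Nop14 ran the other way, 1.19 (adjusted p = 0.012) and 1.40 (adjusted p = 0.010) higher than on the Nfib arrays, with changes of 0.25 and 0.29 against the Mycl1 arrays that did not pass it.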

How the data were processed

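Affymetrix values of the 8 arrays, a log2 signal per probe set which the authors made with GCRMA (version 2.20.0, run in R version 2.11.0, per the submitters' processing notes), were used as deposited; the log base is not stated and was taken from the range of the values. Of 22690 probe sets, 64 are control probe sets and were left out. The platform annotation gave 20380 of the rest 1 gene symbol, 691 several and 1555 none, and genes were named from the first kind. Members and gene lists (36 lists) were chosen with earlier results of these data known. Probe sets had to exceed log2 4 on at least 2 of the 8 arrays. For each gene the one with the highest mean was kept, leaving 8596 of 12393 genes. limma 3.58.1 in R 4.3.3 was fitted (lmFit, eBayes with a mean-variance trend) with vector and line (5 residual degrees of freedom), with 4 means for the changes within lines (4), and over 16 arrays for comparisons with single vectors (11). Calls have a Benjamini-Hochberg adjusted p under 0.05, and all limma p-values are two-sided. Genes were named by a rule: every probe set of Nfib, Mycl and Mycn, the 10 largest rises and falls with the same sign in both lines, the 12 rises and falls with the largest smaller change of the 2 lines outside leukocyte lists, up to 4 called members per list, and the 5 largest differences between lines each way. Outside this rule came the cell type markers, Cxcl15, Abca3, Aldh3a1 and the members named for running against their list. On simulated data with 8596 genes, the Nfib+Mycl1 test recovered 18% of changes of 0.5, 71% of 1 and 90% of 2 (log2), and 3.1% of its calls were false. These data had independent normal scatter on each array and no difference in response between lines. Only 50, 100 and 50 genes were changed by these amounts. The 3.1% is therefore not the false share of the calls reported here. The number of arrays limits the precision. Replicate numbers were checked for pairing: deviations from group means correlated at 0.0849 in 3583T3 and 0.2 in 3151T4. With 2 arrays per group the check cannot settle whether the numbers pair the arrays, and the main test left pairing out. Promoters came from a RefSeq table of GRCm38.p6.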

Additional observations from a re-analysis of the deposited data

Results flagged for a closer look

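In groups of 4 arrays, 1 array stood apart from the others in 11 of 348 values tested. The test (Dixon's) sets the gap to the nearest array against the range of the group. Each group pooled arrays of both lines. A difference between the lines widens the range, so the test could miss an array in genes that differ between lines. Chance gives about 1 in 20 only where the arrays of a group share a common mean. The 11 can therefore not be read against that rate. Among the Nfib+Mycl1 arrays the values that stood apart were Mycl 1422087_at at 2.67, Clec4d at 3.3, H2-Eb1 at 2.54, Hes6 at 6.96, Ldha at 13.16, Lmnb1 at 10.77, Nfib at 10.34, Pfkl at 9.12, Prrx1 at 10.62 and Uchl1 at 8.31. Among the control arrays it was Pus1 at 7.16.

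The change with Nfib+Mycl1 differed between the lines by limma's test of the difference for 31 of the 166 named genes. Given as the change in 3583T3 minus the change in 3151T4, on the log2 scale, the difference was positive for Postn (7.0), Cd34 (6.77), Sfrp1 (6.68), Dkk2 (6.33), F13a1 (6.31), Trim30a (3.89), Gas1 (3.77), Crabp1 (3.49), Dsp (2.25), Inhbb (1.92), Mmp13 (1.87), Col6a2 (1.81), Ptprz1 (1.58), Itga6 (1.49), Irgm1 (1.46) and Cdkn2b (1.40). It was negative for Bex4 (-6.84), Ugt2b34 (-6.40), Car9 (-6.12), Tnnc2 (-5.71), Myh11 (-5.09), Lhx8 (-5.03), Cd74 (-4.97), Clec4d (-4.28), H2-Aa (-3.62), Slpi (-3.01), Mpeg1 (-2.75), H2-Eb1 (-2.64), Srgn (-2.09), Tyrobp (-2.07) and C1qb (-1.91).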

How the results depend on the processing

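With the replicate number as a block the Nfib+Mycl1 against control count was 2552, and the counts against Nfib and Mycl1 were 975 and 138. Whether these numbers pair the arrays is not settled. Using each probe set by itself, the counts were 4824 for Nfib+Mycl1 against control and 4638 in 3151T4. With replicates averaged, which leaves 4 values, 5 genes were called against control, 2 higher and 3 lower. Leaving out 1 array at a time gave 1870 to 3212 genes against control (1870 without 3151T4 Nfib+Mycl1 replicate 3 and 1913 without 3151T4 control replicate 4), 408 to 2112 in 3583T3 (408 leaving out control replicate 1 and 700 leaving out control replicate 2 of that line), 978 to 3442 in 3151T4 (978 without 3151T4 Nfib+Mycl1 replicate 3, 1020 without 3151T4 control replicate 4, 1560 without 3151T4 Nfib+Mycl1 replicate 4), 230 to 996 for the difference between lines, 0 to 2035 against Nfib and 97 to 542 against Mycl1. Without both arrays whose Mycl signal goes against the label the count against Nfib was 2385. A mean for each line and vector, averaged over the lines, gave 3570 genes, and more members called in several lists, among them collagens higher (5, against 3), growth factors and receptors higher (7, against 4), axon guidance higher (5, against 1) and Wnt lower (9, against 5). Centring on array medians gave 1417 higher and 1422 lower. In 3583T3 it gave 553 higher and 678 lower, against 708 and 611 as reported. Probe set 1425922_a_at of Mycn, not called, ranged from -0.0216 (without 3151T4 Nfib+Mycl1 replicate 3) to 0.173 (without 3151T4 Nfib+Mycl1 replicate 4). Of the named genes, Tnnc2 and Lhx8 lost their pooled call without any 1 of the 3151T4 arrays. Myh11, F13a1, Trim30a, Mga, Mnt, Fbln1, Thy1, Cd28 and Boc were among those that lost theirs in several settings. The cause was not tested.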
